A study of Mus musculus with 16 samples.

Results

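Ndrg1, Map1lc3b, Laptm4b and Rbm42 are 4 of the 9669 mouse genes that had a probe with a single gene symbol on the arrays. They were chosen by their measured values, the log2 ratios of kidney over liver, which were among the largest on the arrays although none of the 4 is known as a kidney-specific gene. The members were found by symbol, and each had 1 probe with that symbol alone. Map1lc3b also shared a second probe with another symbol.

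Each array held cDNA of the kidney or the liver of 1 male wildtype C3HeB/FeJ mouse, an inbred strain kept free of specified pathogens, and, in the second dye, cDNA from a pool of 5 animals of the opposite organ. The left kidney and the dorsal lobe of the liver were taken at 105 ± 5 days of age, and the mice had no transgene or treatment in the labels. A single kidney was set against the liver pool on 7 arrays, with 3 arrays for mouse 1, 3 for mouse 2 and 1 for mouse 3. A single liver was set against the kidney pool on 9 arrays, 3 for each of the same 3 mice. Repeat hybridisations used 1 RNA per organ of a mouse, so they were averaged into 6 values, one for each mouse and organ (n = 3 mice per organ). Both organs are mixtures of cell types, and in whole tissue a larger number of expressing cells cannot be told apart from more RNA per cell.

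Every value below is a log2 ratio of kidney over liver unless another scale is named, so a value of 3 stands for 8-fold more signal from kidney. The direction was read from markers and is opposite to the order of the array titles. As deposited, 12 of 12 hepatocyte markers were above 0 where a single kidney was hybridised (median 7.34) and 0 of 12 where a single liver was (median -7.09). For the 9 proximal tubule markers these numbers were 0 (median -4.42) and 9 (median 4.99). If the title order were right, every kidney and liver word here would be exchanged, while sizes and tests would stay. An array gave between 15480 and 19432 values from 20419 probes. The median ratio was within 0.00267 of 0 on the 10 arrays of mice 1 and 3. On the 6 arrays of mouse 2 it lay between -1.49 and -1.19, so mouse 2 stands apart and values are also given after each array was centred on its median.

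The 4 genes encode unrelated proteins. Ndrg1 encodes a cytoplasmic protein of the NDRG family, named after Myc regulation and known for its induction in low oxygen and for its role in myelinating Schwann cells. Map1lc3b encodes LC3B, a member of the ATG8 family of ubiquitin-like proteins, which is joined to phosphatidylethanolamine on autophagosome membranes and serves as the common marker of autophagy. Laptm4b encodes a membrane protein of late endosomes and lysosomes that binds ubiquitin ligases of the NEDD4 family and affects sorting of the EGF receptor. Rbm42 encodes an RNA-binding protein with an RNA recognition motif that binds hnRNP K and has been linked to splicing. All 4 are commonly described as active in many tissues. Breadth over tissues was not measured here, since the arrays compare 2 organs.

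Promoter windows are shown because they let the start regions of members with like ratios be compared letter by letter. RefSeq windows of GRCm38.p6, each with 250 bases before and 50 after the start of the gene, held 2 of the 4 members, Map1lc3b at chr8:121590188-121590487 on the plus strand and Rbm42 at chr7:30650179-30650478 on the minus strand. Capitals mark matches on either strand of 4 short motifs: the cores ACGTG and GCGTG of the hypoxia response element, the ETS core CCGGAA and the cyclic AMP response core TGACGT.
Map1lc3b: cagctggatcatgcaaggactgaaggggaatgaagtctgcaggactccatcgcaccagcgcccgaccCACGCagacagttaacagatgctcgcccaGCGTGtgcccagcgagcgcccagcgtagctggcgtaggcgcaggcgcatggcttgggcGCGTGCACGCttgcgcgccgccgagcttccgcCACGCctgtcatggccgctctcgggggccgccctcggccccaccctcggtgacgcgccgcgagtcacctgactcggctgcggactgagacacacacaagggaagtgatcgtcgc
Rbm42: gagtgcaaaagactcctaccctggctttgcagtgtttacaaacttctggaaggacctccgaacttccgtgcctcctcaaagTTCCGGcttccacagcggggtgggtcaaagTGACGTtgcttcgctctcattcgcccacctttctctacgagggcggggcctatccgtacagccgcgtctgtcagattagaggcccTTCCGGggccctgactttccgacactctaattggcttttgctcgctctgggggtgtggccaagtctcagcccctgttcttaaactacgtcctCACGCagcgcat
The Map1lc3b window had 5 matches of GCGTG and the Rbm42 window had 1, and 32.4% of 32851 windows of the same length held at least 1. Neither had ACGTG, which 19.6% of the windows held, nor the E-box CACGTG, which contains ACGTG and was in 7.15%. The GC box GGGCGG occurred once in each and in 35.7% of all windows. Rbm42 also had 2 matches of CCGGAA (14.9% of windows), 1 of TGACGT (7.51%) and 1 of CCAAT (37.4%), and Map1lc3b had none of these 3. The HNF1 motif, searched by its consensus letters, was in neither window and in 0.00913% of all. The base composition differed as well, with 68.0% G and C for Map1lc3b and 56.7% for Rbm42 against a median of 52.7%. The windows shared the GC box and GCGTG, both common among promoters.

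All 4 probes had a value on 16 of 16 arrays, and every one of these values was above 0. As background, 5.18% of 18670 probes passed an adjusted p of 0.05 as higher in kidney and 7.45% as higher in liver in limma's fit across all probes. The same contrast chose the members, so their values and ranks in it are given as a description, with no test. Over the 6 averages the fitted ratios were 5.69 for Ndrg1, 5.60 for Map1lc3b, 5.47 for Laptm4b and 5.42 for Rbm42, with SEs of 0.26, 0.34, 0.27 and 0.28. These correspond to 51.5-fold, 48.4-fold, 44.2-fold and 42.7-fold more signal from kidney. With the mouse as a replicate block the ratios stayed and the SEs were each 0.50.

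**Figure D1:**
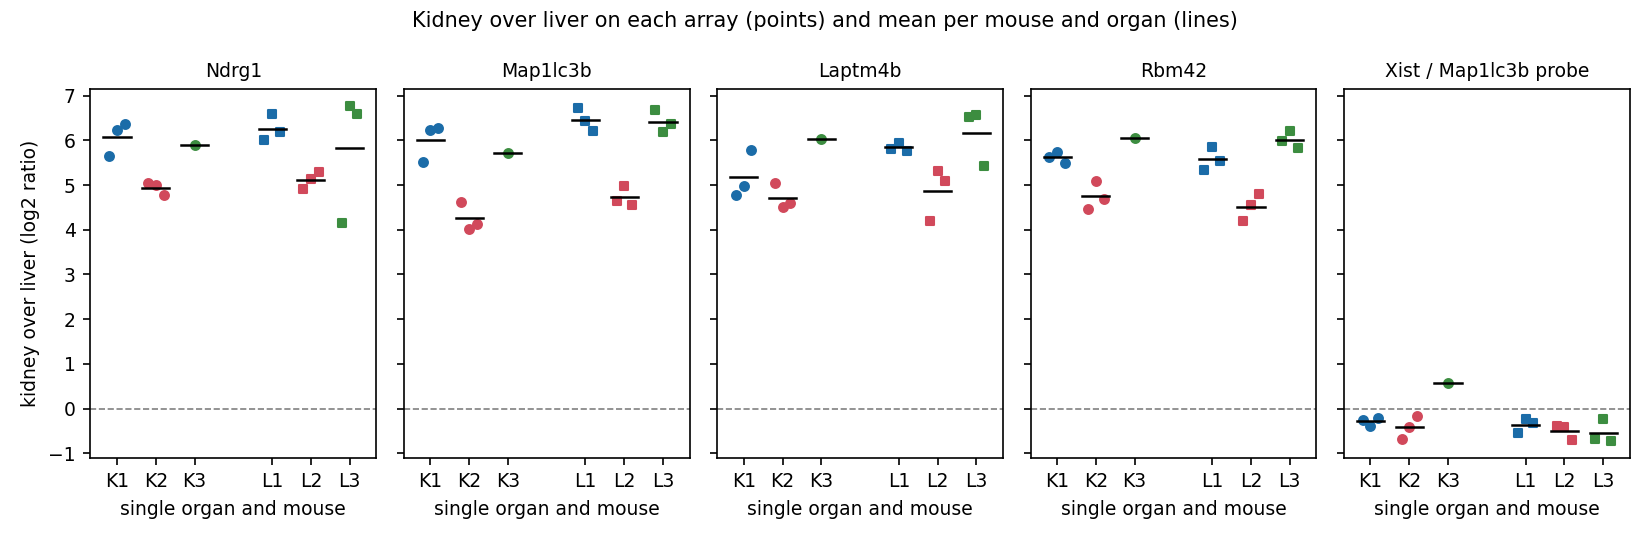
Kidney over liver log2 ratio on each array for the 4 members and for the probe annotated to both Xist and Map1lc3b. K and L mark arrays of single kidneys and livers, the digit is the mouse, points are arrays and lines are means; every member point lies above 4, the lowest being 4.02 for Map1lc3b in the kidney of mouse 2, while the shared probe stays between -0.72 and 0.56.

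For Ndrg1, the induced cytoplasmic protein, the kidney arrays read 5.65, 6.23 and 6.36 in mouse 1, 5.05, 4.99 and 4.77 in mouse 2, and 5.90 in mouse 3. The liver arrays read 6.01, 6.58 and 6.19 in mouse 1, 4.91, 5.14 and 5.29 in mouse 2, and 4.15, 6.77 and 6.59 in mouse 3. Mouse 2 was low on both kinds of arrays, and 1 liver array of mouse 3 was lower still. On that array Ndrg1 ranked 70th from the kidney end, against ranks 3 to 16 on the other 15 arrays. The 3 liver arrays of mouse 3 had an SD of 1.46, and the SD between repeat hybridisations was 0.697 for Ndrg1 over all averages with repeats, against a median of 0.207 for 2912 bright probes. A bright probe is one with few exactly recurring values on its arrays, since ratios of small whole numbers recur at low signal.

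For Map1lc3b, the autophagosome protein LC3B, the kidney arrays read 5.52, 6.23 and 6.28 in mouse 1, 4.63, 4.02 and 4.14 in mouse 2, and 5.73 in mouse 3. The liver arrays read 6.71, 6.43 and 6.21, then 4.64, 4.99 and 4.55, then 6.68, 6.19 and 6.36 in mice 1, 2 and 3. All 6 arrays of mouse 2 lay below all 10 arrays of the other two mice. The average of mouse 2 was 4.26 ± 0.32 (SD, n = 3 arrays) on kidney arrays and 4.72 ± 0.23 (SD, n = 3 arrays) on liver arrays. The first of these was the lowest of all averages of the members. Repeat hybridisations had an SD of 0.306.

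For Laptm4b, the late endosomal membrane protein, the kidney arrays read 4.77, 4.98 and 5.78 in mouse 1, 5.04, 4.51 and 4.60 in mouse 2, and 6.03 in mouse 3. The liver arrays read 5.80, 5.95 and 5.76, then 4.19, 5.31 and 5.09, then 6.51, 6.57 and 5.42 in mice 1, 2 and 3. Here the mice overlapped: 2 kidney arrays of mouse 1 lay below the highest array of mouse 2. Repeat hybridisations had an SD of 0.479.

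For Rbm42, the RNA-binding protein, the kidney arrays read 5.62, 5.74 and 5.50 in mouse 1, 4.47, 5.10 and 4.69 in mouse 2, and 6.04 in mouse 3. The liver arrays read 5.34, 5.85 and 5.54, then 4.19, 4.55 and 4.79, then 5.98, 6.20 and 5.82 in mice 1, 2 and 3. Mouse 2 was again below the other mice on every array. With an SD of 0.250 between repeat hybridisations, Rbm42 was the steadiest of the 4.

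In the order of all genes by kidney excess the members took ranks 5 to 8 without a gap. Just above stood Dnase1, a secreted endonuclease, at 5.83 (SE 0.30), and just below stood Miox, the myo-inositol oxygenase of proximal tubules, at 5.18 (SE 0.25). The order among the 4 is not resolved by the replicates. Within the 6 averages the mean difference of a pair ran from 0.05 for Laptm4b against Rbm42 (SD 0.28) to 0.27 for Ndrg1 against Rbm42 (SD 0.37), and no member was above another in more than 4 of 6 averages. Within any one average the highest and lowest member were 0.32 to 0.90 apart. On single arrays the median rank among all probes was 7 for Ndrg1, 13.5 for Map1lc3b, 13 for Laptm4b and 15.5 for Rbm42.

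Map1lc3b has a second probe, which the annotation gives to both Xist, the noncoding RNA of X inactivation in females, and Map1lc3b. Its ratio was -0.26 (SE 0.22), with an adjusted p of 0.374 in limma's fit, and its averages ran from -0.55 to 0.56. The mean was 0.20 after centring. On single arrays it read between -0.72 and 0.56, so no array of the shared probe overlapped any array of the Map1lc3b probe. On the arrays of mice 1 and 3, 50% of its values recurred exactly, against 0% for each member, where a ratio far from most others seldom recurs at any signal. Which of the 2 symbols the shared probe measures was not tested.

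The names of the members rest on unequal evidence. The probes of Ndrg1 and Map1lc3b each list 1 RefSeq transcript of that gene among 3 accessions. The probes of Laptm4b and Rbm42 list 3 accessions without a RefSeq transcript, as does the shared probe. None of these probes has an accession in common with another probe of the platform. The clone sequences were not used here, so the identity of the 2 probes without a RefSeq transcript was not tested.

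The relatives of the members had ratios between -1.26 and 0.25, and those of the ATG8 family came mostly from dim probes. The members were chosen for their large ratios, so a lower ratio of a relative is no finding, and distances are given as a description. In the NDRG family, Ndrg2, which encodes a related protein abundant in astrocytes, had 2 probes at -1.26 (SE 0.25, adjusted p = 0.0137) and -0.29 (SE 0.21, adjusted p = 0.290). Only the first passed, as higher in liver, and not after centring (adjusted p = 0.101) or with the replicate block (adjusted p = 0.163). Ndrg3, another paralogue, read -0.10 (SE 0.20, adjusted p = 0.703). In every average Ndrg1 was at least 5.05 above Ndrg3 and at least 5.55 above the mean of the Ndrg2 probes, which follows from the choice of Ndrg1. The second Ndrg2 probe had 40% recurring values, so it was not bright.

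Among the ATG8 proteins that share the conjugation system of LC3B, none of the tested probes passed in limma's fit. Over the 3 genes 1 had an unadjusted p under 0.05, on the liver side, and the share of all genes at that threshold was not counted. Map1lc3a, which encodes LC3A, read -0.46 (SE 0.29, adjusted p = 0.242). Gabarap, the founder of the other branch of the family, read -0.85 (SE 0.36, adjusted p = 0.139). Gabarapl1 had 3 probes at -0.94, -0.44 and -0.74, with adjusted p-values of 0.110, 0.263 and 0.201. The first of them passed after centring, at -0.48 (adjusted p = 0.0354), as higher in liver. Gabarapl2 had values on 4 arrays, from -0.83 to 0.88, and was not tested. The 5 tested probes had 50% to 100% recurring values, and a share over 50% marks a dim probe. Ratios of dim probes are poorly measured, so no distance from Map1lc3b is given.

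In the LAPTM family, Laptm4a, the closest relative of Laptm4b in late endosomes, read 0.08 (SE 0.24, adjusted p = 0.801). It became 0.53 after centring and then passed as higher in kidney (adjusted p = 0.0367). Laptm5, a lysosomal protein of blood cells, read -0.68 (SE 0.30, adjusted p = 0.147) from 10 arrays. Laptm4b was at least 5.01 above Laptm4a in each of the 6 averages, which follows from the choice of Laptm4b. The Laptm4a probe had 40% recurring values, so it was not bright. Map1a, the microtubule-associated protein whose light chains gave LC3 its name, read 0.25 (SE 0.20, adjusted p = 0.331).

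**Figure D2:**
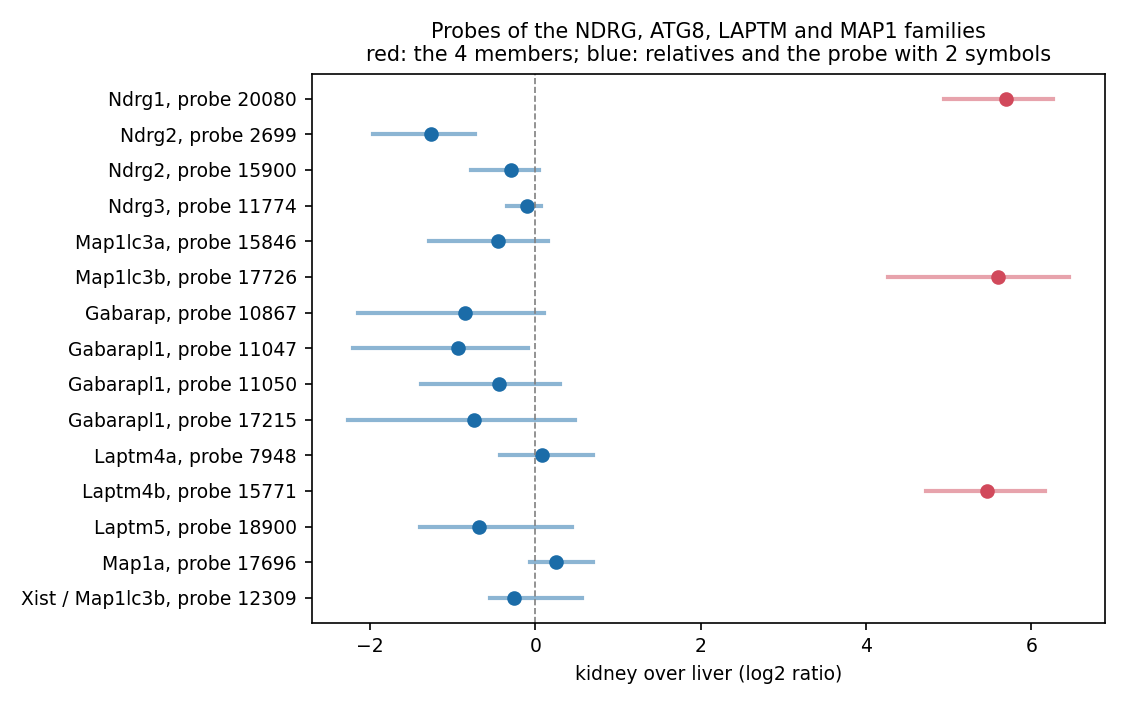
Fitted kidney over liver log2 ratio (points) and the range of the available averages (lines) for probes of the NDRG, ATG8, LAPTM and MAP1 families. The 3 members that belong to these families stand at 5.47 to 5.69, and the relatives stand between -1.26 and 0.25.

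The difference between the array kinds, which the choice of members did not use, asks whether a single kidney against the liver pool gave the same ratio as the kidney pool against a single liver. It was -0.10 (95% interval -1.29 to 1.10) for Ndrg1, -0.53 (-2.08 to 1.02) for Map1lc3b, -0.31 (-1.58 to 0.95) for Laptm4b and 0.11 (-1.19 to 1.41) for Rbm42. None of the 4 passed in limma's fit (adjusted p = 1.00 each), nor did any of the 18670 probes (0%), of which 46 had an unadjusted p under 0.05. With the mouse as a replicate block 0.0648% of probes passed and the SEs of the 4 members fell from 0.52, 0.67, 0.55 and 0.57 to 0.17, 0.17, 0.19 and 0.17. The interval for Map1lc3b was then -0.92 to -0.14. Its unadjusted p there was 0.0128 and its adjusted p 0.586, and 8.22% of all probes had an unadjusted p under 0.05 in that fit.

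Mouse 2 read lower than the other mice in all 4 genes. Against the mean of mice 1 and 3 its kidney average differed by -1.05 for Ndrg1, -1.61 for Map1lc3b, -0.88 for Laptm4b and -1.08 for Rbm42, and its liver average by -0.93, -1.71, -1.14 and -1.28. The test between mice sets their differences against the spread of repeat hybridisations of 1 RNA per mouse and organ, with 1 kidney array for mouse 3, so it holds no spread between animals of a group and compares these RNAs only. In limma's moderated F test on single arrays, 4 of 4 members passed on kidney arrays, where 73.9% of all probes did. On liver arrays Map1lc3b, Laptm4b and Rbm42 passed (adjusted p = 5.21e-05, 0.0131 and 0.000233) and Ndrg1 did not (adjusted p = 0.188), where 86.0% of all probes did. The members' counts are near these backgrounds.

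After centring, 0 of 4 passed against the same hybridisation spread on either kind of array in limma's test, with adjusted p-values from 0.0536 to 0.505 on kidney arrays and 0.222 to 0.633 on liver arrays, while 47.9% and 38.7% of all probes passed. The lowest of these had an unadjusted p of 0.0263, and the other 7 were above 0.05. It was Laptm4b on kidney arrays, where mouse 1 stood at 5.18 and mice 2 and 3 at 6.09 and 6.03. Without mouse 2, again 0 of 4 passed in limma's test on either kind, also at an unadjusted p under 0.05, against 0.0208% and 1.05% of all probes. With mouse 2 aligned to the other mice among probes of like signal, Map1lc3b passed on kidney arrays (adjusted p = 0.0107, background 33.5%), and Map1lc3b and Rbm42 passed on liver arrays (adjusted p = 0.00246 and 0.0105, background 32.6%). After quantile normalization Map1lc3b alone passed on kidney arrays (adjusted p = 0.0407, background 33.1%) and none on liver arrays (background 30.2%). Without mouse 1 the members called were 4 (background 66.3%) and 3 (77.8%). Without mouse 3 they were 3 on kidney arrays (76.5%), Laptm4b being lost (adjusted p = 0.161), and 4 on liver arrays (84.0%).

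**Figure D3:**
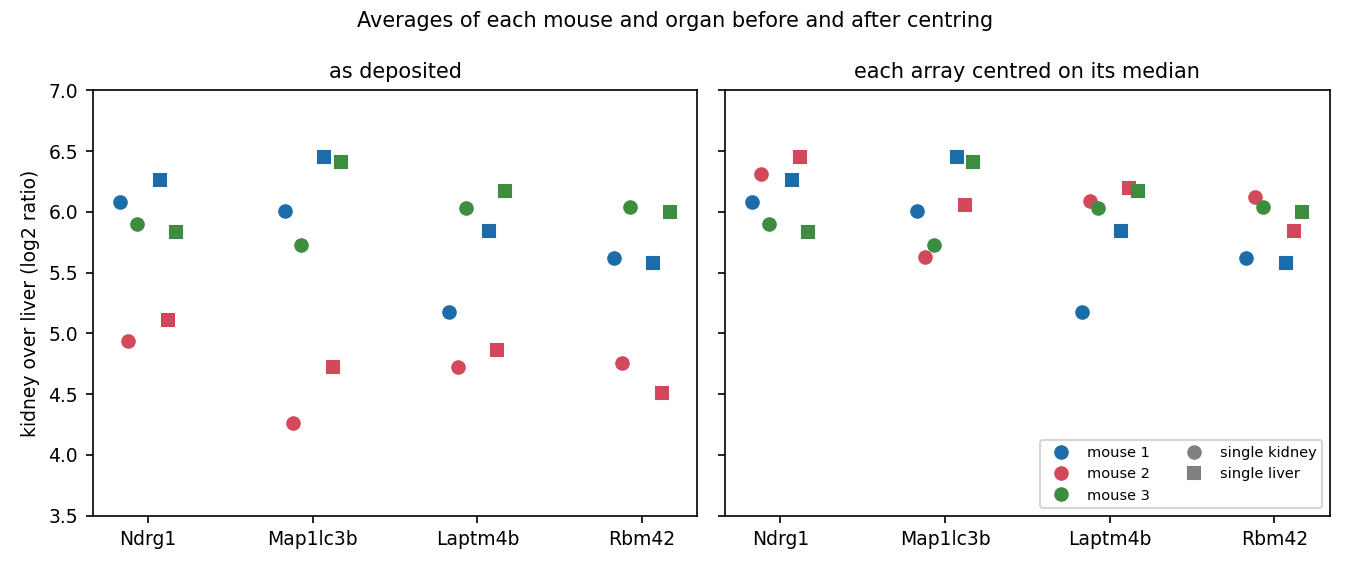
Kidney over liver log2 ratios averaged for each mouse and organ, as deposited (left) and after centring each array on its median (right). As deposited the red points of mouse 2 lie lowest for every member, from 4.26 to 5.11. After centring they lie among or above the others except for Map1lc3b. There each is the lowest of its own array kind, at 5.63 for single kidneys and 6.06 for single livers.

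Other bright probes with a large kidney excess also read lower in mouse 2. Among bright non-member probes whose mean in mice 1 and 3 was 5 to 10, mouse 2 differed by a median of -1.31 on kidney arrays (24 probes) and -1.22 on liver arrays (32 probes). The medians were -0.12 and -0.27 for bright probes with a mean between -1 and 1, and -1.56 and -1.43 for dim probes. Centring shifts every probe of an array alike, so in mouse 2 it moves bright probes with a mean near 0 toward kidney. Counts of genes called after centring carry this shift. The members' medians were -1.06 and -1.21. Map1lc3b, at -1.61 and -1.71, lay beyond the lower quartile of the bright probes of like ratio, at -1.51 and -1.63. Probes chosen for a high mean in mice 1 and 3 tend to read lower in a mouse that was not used to choose them, and this part of the difference was not tested.

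Other genes of the members' pathways were taken from lists. The members were chosen for their large ratios, so a lower ratio elsewhere is no finding. Counts are of genes that passed an adjusted p of 0.05 in limma's fit over 9047 genes, where 5.56% passed as higher in kidney and 8.88% as higher in liver and the median ratio was -0.48. After centring the shares were 19.5% and 12.4% and the median -0.01. With the replicate block they were 2.83% and 4.78%. In that fit the SE was 0.50 for each member, so a call kept or lost there follows mostly the size of the ratio. Without mouse 1 or mouse 3 the probes called fell from 2358 to 700 and 799, and without mouse 2 they rose to 4873. Every call named below as lost without mouse 1 or mouse 3 was kept without mouse 2. The share of all genes with an unadjusted p under 0.05 was not counted, so list counts at that threshold have no background beside them.

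Of 19 measured genes induced in low oxygen, the setting in which Ndrg1 is best known, 5 passed as higher in kidney and 1 as higher in liver (median 0.04). Aldoa, the muscle-type aldolase of glycolysis, read 2.11 (SE 0.20, adjusted p = 0.000162), and Bhlhe40, a transcriptional repressor that also takes part in the circadian clock, read 2.04 (SE 0.23, adjusted p = 0.000498). P4ha2, a subunit of collagen prolyl hydroxylase, was higher in liver at -1.39 (SE 0.30, adjusted p = 0.0160), a call lost without mouse 3 (adjusted p = 0.143). The other 3 higher in kidney, named after their values were seen, were the glucose transporter Slc2a1 at 1.19 and the glycolytic enzymes Pgk1 at 1.12 and Pfkp at 0.90. With the replicate block 2 and 1 passed, and after centring 8 and 1 with a median of 0.61. The 3 calls named last were lost with the block and without mouse 1 (adjusted p from 0.131 to 0.205) or mouse 3 (adjusted p from 0.0936 to 0.251).

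Of 21 other genes of the autophagy machinery and its receptors, 0 passed as higher in kidney in limma's fit and 2 as higher in liver, with a median of -0.61. At an unadjusted p under 0.05 the numbers were 1 and 9, with no share of all genes to set beside them. Nbr1, a receptor that carries ubiquitinated cargo to LC3, read -1.11 (SE 0.29, adjusted p = 0.0385), and Atg101, a part of the initiating ULK1 complex, read -0.81 (SE 0.22, adjusted p = 0.0438). Both calls were lost with the replicate block (adjusted p = 0.133 and 0.285) and when mouse 1 (adjusted p = 0.0749 and 0.169) or mouse 3 (adjusted p = 0.163 and 0.207) was left out. After centring 4 passed as higher in kidney, and Nbr1 and Wipi1, a phosphoinositide-binding autophagy protein named after its value was seen, as higher in liver (adjusted p = 0.0123 and 0.0247), but not Atg101 (adjusted p = 0.181).

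Of 20 membrane and sorting genes of lysosomes and late endosomes, the compartment of Laptm4b, 3 passed as higher in kidney and 1 as higher in liver (median -0.24). Cd63, a tetraspanin of late endosomes, came nearest to the members at 4.87 (SE 0.25, adjusted p = 4.24e-06). Tmem9, a lysosomal membrane protein, read 2.09 (SE 0.33, adjusted p = 0.00346), and Vps41, of the HOPS tethering complex, read 1.32 (SE 0.20, adjusted p = 0.00246). Vps11, a core subunit of the same complex, was higher in liver at -1.30 (SE 0.20, adjusted p = 0.00260) and is named here after its value was seen. Without mouse 1 the calls of Tmem9, Vps41 and Vps11 were lost (adjusted p = 0.0791, 0.0887 and 0.0854), and without mouse 3 those of Vps41 and Vps11 (adjusted p = 0.0684 and 0.106). With the replicate block 3 and 0 passed, the call of Vps11 being lost (adjusted p = 0.0559), and after centring 6 and 1.

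Among 6 genes whose products are known to act with LAPTM4B, 0 passed as higher in kidney in limma's fit and 2 as higher in liver. At an unadjusted p under 0.05 the numbers were 0 and 4. Nedd4, the ubiquitin ligase, read -3.82 (SE 0.22, adjusted p = 7.39e-06), and Egfr, the EGF receptor, read -2.26 (SE 0.21, adjusted p = 0.000162). Both were far from Laptm4b on the opposite side of 0, and both kept their call after centring (adjusted p = 3.55e-05 and 0.00276). After centring 1 of the 6 also passed as higher in kidney, Hgs at 0.92 (adjusted p = 0.00165). It read 0.47 as deposited (adjusted p = 0.219) and is named after its value was seen.

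Of 16 genes of the spliceosomal tri-snRNP and partners of RBM42, 1 passed as higher in kidney and 1 as higher in liver (median -0.08). Hnrnpk, the RNA-binding partner of RBM42, read 0.99 (SE 0.20, adjusted p = 0.0121), and Prpf6, a protein that bridges the snRNPs, read -1.32 (SE 0.22, adjusted p = 0.00414). The call of Hnrnpk was lost with the replicate block (adjusted p = 0.203) and without mouse 1 or mouse 3 (adjusted p = 0.196 and 0.150), and that of Prpf6 without mouse 3 (adjusted p = 0.118). After centring 8 passed as higher in kidney and 1 in liver. Of 22 other genes with an RBM symbol, 2 passed as higher in kidney and 1 as higher in liver (median -0.45). They were Rbmxl2 at 1.24 (SE 0.29, adjusted p = 0.0219), Rbm47 at 1.21 (SE 0.20, adjusted p = 0.00380) and Rbm43 at -1.08 (SE 0.24, adjusted p = 0.0200). After centring 5 passed as higher in kidney and 2 in liver, with a median of 0.06. None of Rbmxl2, Rbm47 and Rbm43 kept its call with the replicate block (adjusted p = 0.0737, 0.0865 and 0.150), without mouse 1 (adjusted p = 0.168, 0.118 and 0.166) or without mouse 3 (adjusted p = 0.0770, 0.0993 and 0.103). Each kept it after centring (adjusted p = 0.00414, 0.00114 and 0.0200) and without mouse 2 (adjusted p = 0.0154, 0.000264 and 0.00252).

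Of 12 genes commonly used as references for even expression, 0 passed as higher in kidney in limma's fit and 2 as higher in liver. At an unadjusted p under 0.05 the numbers were 0 and 7. The median was -0.78 as deposited and -0.28 after centring. With mouse 2 aligned by signal 2 passed as higher in kidney and 3 as higher in liver. B2m, the light chain of MHC class I, read -3.15 (SE 0.20, adjusted p = 1.28e-05), and Cfl1, the actin-severing cofilin, read -0.98 (SE 0.24, adjusted p = 0.0268). The call of Cfl1 was lost with the replicate block (adjusted p = 0.211) and without mouse 1 or mouse 3 (adjusted p = 0.126 and 0.166). The highest of the 12 was at 0.45.

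The levels of the members stood beside those of markers of kidney cells. The direction of the ratio was read from the proximal tubule and hepatocyte markers, so the side on which these lists fall is no finding. All 9 measured proximal tubule markers passed as higher in kidney, with a median of 4.92, led by Kap, an androgen-regulated protein of the tubule, at 6.05 (SE 0.28), Miox at 5.18 (SE 0.25) and Cubn, the endocytic receptor cubilin, at 5.16 (SE 0.31). In the loop of Henle and the distal tubule 2 of 3 passed, Cdh16, the kidney cadherin, at 5.15 and Umod, uromodulin, at 3.87. Pvalb, named after its value was seen, lay on the liver side at -0.62 (adjusted p = 0.177 in limma's fit). Of the collecting duct 3 of 5 passed, led by Atp6v1g3, a proton pump subunit, at 3.27. Slc4a1, named after its value was seen, lay on the liver side at -1.17 (adjusted p = 0.0523 in limma's fit). After centring 4 of the 5 passed as higher in kidney and Slc4a1 as higher in liver (adjusted p = 0.0123). Of podocytes 2 of 2 passed, Synpo at 3.06 and Podxl at 2.40. All 12 hepatocyte markers were higher in liver, with a median of -7.24, and 3 of 4 macrophage markers were, led by Tyrobp, a signalling adaptor, at -2.92. The remaining macrophage marker, C1qb, named after its value was seen, lay on the kidney side at 0.31 (adjusted p = 0.288 in limma's fit). Of the macrophage markers 2 were higher in liver with the replicate block, and the centred arrays gave 2 for liver and 1 for kidney. C1qa, a complement subunit named after its values were seen, lost its call in both (adjusted p = 0.125 and 0.0552) and without mouse 1 or mouse 3 (adjusted p = 0.102 and 0.144). Of 5 endothelial and stromal markers 0 passed in limma's fit, also at an unadjusted p under 0.05, and 3 passed as higher in kidney after centring. The part of the cell types in the members' ratios was not tested.

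**Figure D4:**
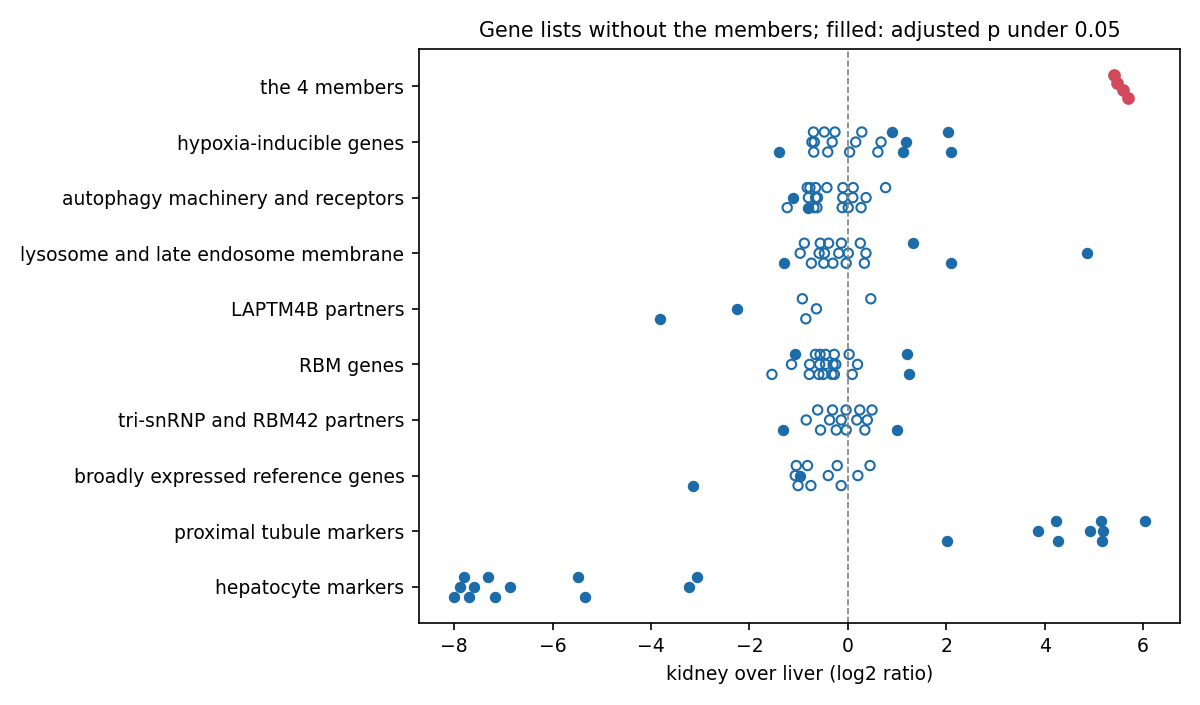
Kidney over liver log2 ratio of each measured gene in 9 lists, without the members, and of the 4 members (red, top). Filled points passed an adjusted p of 0.05 in limma's fit; the members at 5.42 to 5.69 lie among the proximal tubule markers and beyond the genes of their own pathways, of which Cd63 at 4.87 is nearest.

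The genes most like each member were found by the root mean square difference over the 16 arrays, on the log2 scale. For Ndrg1 they were Kap (0.637), Cyp4b1, a cytochrome P450 (0.657), and Dnase1 (0.698). For Map1lc3b they were Cyp4b1 (0.517), Laptm4b (0.613) and Rbm42 (0.631). For Laptm4b they were Miox (0.460), Rbm42 (0.472) and Pdzk1ip1, a small membrane protein of tubules (0.601), and for Rbm42 they were Miox (0.395), Cubn (0.471) and Laptm4b (0.472). The median difference over 7821 genes with enough values was between 5.85 and 6.20. Since all these genes have a large mean excess, and the arrays share mouse 2, likeness here is mostly likeness of level.

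The genes measured nearest to the members in the genome are given as a description. The members were chosen for their large ratios, so a lower ratio nearby is no finding. From 0 to 11 other genes lay between such a gene and its member. Of the 2 nearest measured genes on each side of each member, 16 in all and chosen after other values were seen, 1 passed as higher in kidney and 1 as higher in liver, and they ranged from -1.74 to 1.01. St3gal1, a sialyltransferase that lies next to Ndrg1, was the lowest (adjusted p = 0.00196), and 2200002J24Rik, 1 gene removed from Rbm42, was the highest (adjusted p = 0.00904).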

How the data were processed

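RNA from kidney and liver of 3 mice was hybridised to 16 arrays with 20419 probes. Per the labels' protocols, total RNA (20 µg) received Cy3 or Cy5 by indirect labelling, slides were read with a GenePix 4000A scanner and GenePix Pro 3.0, and the authors normalised background-subtracted mean intensities to a median ratio of 1. The deposited values are log2 ratios; the base was read from the values, since 86 of 90 distances from an array's most frequent value to others equalled (tolerance 1e-04) the log2 of a quotient of integers no larger than 10, where the natural log fitted 0 and log10 fitted 8. Dye assignments and intensities were not used here. The values were turned to kidney over liver.

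Gene names came from the platform annotation (11723 probes with 1 symbol, 806 with several, 7890 with none; 11590 matched RefSeq), and probes of a gene were averaged. The 6 averages were fitted with limma 3.58.1 (R 4.3.3) and a term for array kind, for probes measured in 2 or more mice of each organ, and mice were compared by limma's moderated F test of the single arrays. Tests are two-sided with Benjamini-Hochberg adjustment. With 3 mice per organ and pools as 1 RNA each, p-values of the fit to the averages measure the spread between these samples, and those between mice the spread between repeat hybridisations of 1 RNA. With the replicate block the SE of kidney over liver was 0.50 for each member and the shared probe. Their averages had SDs from 0.41 to 0.91, so calls with the block follow the size of the ratio more than a gene's own spread. The fits were tested on simulated data. A probe was bright with at most 10% and dim with over 50% exactly recurring values with 8 or more values on the 10 arrays of mice 1 and 3; a ratio far from most others also seldom recurs.

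Mouse numbers identify the same animals in both organs, per the labels. Over 14688 probes, a mouse's deviations on kidney and liver arrays correlated at 0.591, 0.795 and 0.585 as kidney over liver. The main fit took them as independent, so its SEs tend to be too small for kidney over liver and too large for the array kind difference, and a replicate block was an alternative beside centring, alignment of mouse 2, quantile normalization, medians of hybridisations, complete values, each array kind alone, other variance models and leaving out each mouse. Centring together with the block was chosen after seeing the data. The members and gene lists were chosen with earlier results of these data known. The text names the members, measured genes of their families, the 3 called genes with the largest change in each list, the genes ranked next to the members and the 3 genes most like each (values on at least 14 arrays). Figures were drawn with matplotlib 3.10.9.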

Additional observations from a re-analysis of the deposited data

Results flagged for a closer look

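On the kidney arrays, the probe annotated to both Xist and Map1lc3b read highest in the single array of mouse 3, at 0.56 as kidney over liver, and its distance to the next of the 7 arrays was 0.591 of the whole range, above the limit of 0.568 for 7 values. Before centring, the other 6 kidney arrays lay below 0 as kidney over liver, and the 3 liver arrays of the same mouse averaged -0.55. After centring, the kidney array of mouse 3 was no longer highest, at 0.57 against 0.76, 1.09 and 1.02 on those of mouse 2. Chance marks about 1 in 20 groups of independent values, and 10 groups were looked at. The 7 arrays are not independent, being 3 repeats each of mice 1 and 2 and 1 array of mouse 3, so animal and hybridisation cannot be told apart here. As deposited, no group of arrays of the 4 members passed its limit, the largest share being 0.381 for Laptm4b on liver arrays. The low values of mouse 2 widen these ranges. In log2 units the lowest liver array of Laptm4b, at 4.19, was further from the next, at 5.09. After centring, the lowest liver array of Ndrg1 read 4.15 and the next 6.01, and shares of centred values were not computed.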

How the results depend on the processing

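The members' ratios kept their sign under all 13 alternatives, from 5.45 to 6.14 for Ndrg1, 5.28 to 6.15 for Map1lc3b, 5.15 to 5.92 for Laptm4b and 5.11 to 5.87 for Rbm42. The alternatives reuse the values that chose the members, so the kept sign is a description and no test. The replicate block, complete values and other variance models leave a member's ratio unchanged by construction. Counts over all probes moved. Against 2358 probes called for kidney over liver, 5445 were called after centring, 6427 with mouse 2 aligned by signal, 13609 after quantile normalization (1980 higher in kidney and 11629 in liver, against 967 and 1391 as deposited, and 3328 and 2117 after centring), 968 with the replicate block, and 700 to 4873 with 1 mouse left out (700 without mouse 1, 4873 without mouse 2 and 799 without mouse 3). For the array kind, 0 became 10 with alignment, 11 with quantile normalization, 12 with the replicate block and 20 with the block after centring. Between mice, 10967 on kidney arrays became 7115 after centring, 4969 with alignment, 4919 with quantile normalization and 3 to 13847 with 1 mouse left out, the lowest without mouse 2; 15870 on liver arrays became 7133, 6014, 5573 and 197 to 15761. The block brought no member past the threshold for array kind. The cause was not tested. Raw signal was not used, so depth over background is unknown beyond the recurrence of values.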

Other observations

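The members' numbers in the platform's probe numbering are given as a description. The boundary below was chosen after seeing the values, the members were chosen for their ratios, and what the numbering stands for is not given in the sources used here. Of 22 probes with a ratio of at least 5, 17 had a number from 1 to 2500. The other 5 were the 4 members and a probe without a symbol, at 5.86 (SE 0.72). Of the probes numbered 1 to 2500, 66 of 2309 (2.86%) had a ratio of at least 3, against 39 of 16361 (0.238%) of those with higher numbers. With the numbering cut into 8 blocks, the last, which holds Ndrg1 and Map1lc3b, had the second highest share at or above 3 (0.604%) and the highest share at or below -3 (2.42%).

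The 5 probes numbered on each side of a member are described likewise, and a lower ratio there is no finding. Their medians were -0.04 around Ndrg1, -0.43 around Map1lc3b, 0.06 around Laptm4b and -0.22 around Rbm42. The highest single values were 1.01 for Herc2 near Ndrg1, 0.74 for Ablim1 near Map1lc3b, 2.82 for Adamts10 near Laptm4b and 0.66 for a probe without a symbol near Rbm42.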
